A study of Mus musculus with 6 samples.

Results

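The endoplasmic reticulum chaperones Hspa5, Hyou1, Dnajb9, Sdf2l1, Hsp90b1, Calr, Canx, Pdia3, Pdia4 and Pdia6 were measured in nuclei of the mouse retina at 2 ages. The genes were taken by symbol, and all 10 were found once each among the 32285 genes counted. They were chosen by their measured difference between the ages: in an earlier look at the same data Calr, Hspa5 and a wider list of stress genes had stood out in rods, and that list in amacrine cells as well. The differences between ages in rods and in amacrine cells are therefore given here as descriptions and support nothing. The 18-month group held 3 libraries and the 3-month group held 3 libraries, all from whole retinas of wild-type (WT) C57BL6/J mice. RNA of single nuclei was read with the 10x Genomics droplet method (3' chemistry, v3.1), so the values are of nuclear RNA. The study's title concerns a fatty acid supplement given to the retina, but no supplemented animal was among these libraries. Whether animals were pooled, or each library was its own animal, is not in the labels. A p-value here therefore sets a difference against the spread between libraries, which need not be that between animals and may in part be technical.

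The endoplasmic reticulum is where secreted and membrane proteins fold. Hspa5 (BiP) is the Hsp70-type chaperone of its lumen, Dnajb9 is one of the J-domain proteins that drive the ATPase of Hspa5, Sdf2l1 is a partner of Hspa5 and its J-domain proteins, and Hyou1 is a nucleotide exchange factor for Hspa5. Hsp90b1 (GRP94) is the Hsp90-type chaperone of the same lumen. Calr and Canx are lectins, the first soluble and the second spanning the membrane, that hold newly made glycoproteins. Pdia3, Pdia4 and Pdia6 form and exchange disulfide bonds, and Pdia3 works with both lectins. Rods, the dim-light photoreceptors, make membrane proteins throughout life to renew their outer segments. When unfolded protein builds up in the lumen, Atf6 and Xbp1 raise transcription of many of these genes through a promoter motif called the endoplasmic reticulum stress element (ERSE).

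Promoter windows of 250 bases before and 50 bases from the transcription start were taken from RefSeq (build GRCm38.p6, the same assembly as mm10). They were found for 9 of the 10 genes, without Hyou1. The ERSE was searched on both strands as CCAAT, 9 bases of any kind and CCACG and stood in 5 of the 9 windows, those of Hspa5, Hsp90b1, Calr, Canx and Pdia6, against 37 of 27025 genes with such a window (0.137%). Since the motif is already known to raise many of these genes, these shares are a description and no independent finding. Hsp90b1 held 2 copies of the motif. The 6 sites are printed to show the shared ends, with CCAAT and CCACG in capitals, on the strand on which the motif reads forward:
Hspa5: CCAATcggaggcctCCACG
Hsp90b1, far site: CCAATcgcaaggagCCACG
Hsp90b1, near site: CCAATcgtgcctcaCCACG
Calr: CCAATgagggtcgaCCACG
Canx: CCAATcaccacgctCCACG
Pdia6: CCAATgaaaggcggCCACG
The near site of Hsp90b1 and the site of Calr lie on the strand opposite to the gene. Counted from the transcription start, the sites began at -65 in Hspa5, -98 in Pdia6, -145 in Canx, -162 in Calr, and -212 and -107 in Hsp90b1. The 9 inner bases differ between all 6 sites.

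The whole windows of Hspa5, Hsp90b1 and Calr are given because these genes had among the largest differences in rods below and show 3 arrangements of the motif. They lie at chr2:34771840-34772139 (plus strand), chr10:86705395-86705694 (minus strand) and chr8:84846882-84847181 (minus strand), written on the strand of the gene, with the motif's ends in capitals:
Hspa5: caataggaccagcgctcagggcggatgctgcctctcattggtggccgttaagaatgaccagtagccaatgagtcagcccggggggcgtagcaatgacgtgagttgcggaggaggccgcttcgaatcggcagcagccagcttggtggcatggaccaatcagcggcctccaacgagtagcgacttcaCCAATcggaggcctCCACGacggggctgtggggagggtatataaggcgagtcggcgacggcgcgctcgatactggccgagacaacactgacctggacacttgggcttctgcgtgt
Hsp90b1: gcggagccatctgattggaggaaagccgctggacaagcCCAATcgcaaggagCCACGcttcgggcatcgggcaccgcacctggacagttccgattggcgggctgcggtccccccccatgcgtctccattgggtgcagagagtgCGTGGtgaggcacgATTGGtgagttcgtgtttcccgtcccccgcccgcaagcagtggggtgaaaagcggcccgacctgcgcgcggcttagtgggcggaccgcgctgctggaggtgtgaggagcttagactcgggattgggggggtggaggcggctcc
Calr: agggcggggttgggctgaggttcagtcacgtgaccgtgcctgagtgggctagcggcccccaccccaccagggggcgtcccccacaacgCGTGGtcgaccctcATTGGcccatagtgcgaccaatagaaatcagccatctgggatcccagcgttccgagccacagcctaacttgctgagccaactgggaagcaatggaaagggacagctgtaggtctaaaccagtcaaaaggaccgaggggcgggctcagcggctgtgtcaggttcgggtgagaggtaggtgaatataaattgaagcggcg
A match of letters is a description of the window and not a measured binding site. The related motifs ERSE-II (ATTGG, 1 base of any kind and CCACG), UPRE (TGACGTGG) and CARE (TGATGNAA), also searched on both strands, were in 0 of the 9 windows, and in 0.0444%, 0.714% and 4.51% of all windows.

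The genes differ in how much of their span is exon, which matters for nuclear RNA that still holds introns. In GENCODE M21 on mm10, Hspa5 (chr2:34771970-34777547) spans 5578 bases and is 75.8% exonic, and Calr (chr8:84841850-84846934) spans 5085 bases and is 56.6% exonic. Canx (chr11:50293961-50325673) spans 31713 bases and is 14.8% exonic, and Pdia3 (chr2:121413775-121438687) and Pdia4 (chr6:47796141-47813430) are 12.6% and 13.9% exonic. Hsp90b1 (chr10:86690209-86705509), Pdia6 (chr12:17266545-17284770), Hyou1 (chr9:44379490-44392369), Dnajb9 (chr12:44205559-44210326) and Sdf2l1 (chr16:17130138-17132383) are 20.5% to 56.1% exonic. Hsp90b1 shares 977 bases with Gm15344 on the same strand, which the files also count, so UMIs (unique molecules) of that stretch could have gone to either. Pdia3 and Pdia6 share 18 and 50 bases with Catsper2 and Atp6v1c2 on the other strand. Levels are compared below between cell classes and ages for the same gene, and not between genes.

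After filtering, 50241 nuclei of 62893 barcodes remained, with 5613, 14083 and 12789 in the 18-month and 5027, 6192 and 6537 in the 3-month libraries. Of 34 clusters, 27 were named from marker genes, and 7 classes held at least 20 nuclei in every library: rods, cones, Müller glia, amacrine, bipolar, horizontal and retinal ganglion cells. Several features of the libraries bear on every result. Replicate 1 of either age was counted with Cell Ranger 7.1.0, and the other 4 libraries with 7.2.0. Replicate 3 of the 18-month group stood apart, with 73.8% of its nuclei in 2 unnamed clusters and 175 rods, against 1161 and 5546 rods in 18-month replicates 1 and 2 and 504 to 2911 in the 3-month libraries. RNA of the 12 rod markers was found in every tested class of every library, at 24777 to 32908 CPM (UMIs of a gene per 1000000 UMIs of the class and library) in 18-month rods and 40259 to 65490 in 3-month rods, and at 2642 to 20966 CPM at 18 months and 5744 to 27601 CPM at 3 months in the other tested classes. The median mitochondrial percent of a nucleus was 1.58% to 2.10% in 18-month rods and 1.92% to 3.54% in 3-month rods, and 0.504% to 1.11% and 1.47% to 2.48% in amacrine cells. Pairs of libraries shared 11 to 74 barcodes, at most 0.506% of the smaller one. No 2 libraries agreed within sampling noise.

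Across cell classes, 8 of the 10 chaperones had their highest mean level in rods. Hyou1 and Pdia6 had theirs in Müller glia, the support cells that span the retina. Hyou1 was close in Müller glia and rods (17.0 and 16.7 CPM). Müller glia led in 1 of the 6 libraries for Hyou1 and in 3 for Pdia6. Summed over the 10 genes, the level was 1267 ± 561 CPM in rods, 809.6 ± 85.9 in Müller glia, 794 ± 128 in cones, 658 ± 108 in amacrine cells, 604 ± 135 in bipolar cells, 589 ± 67.2 in horizontal cells and 539 ± 59.9 in retinal ganglion cells (SD, n = 6 libraries of both ages). Rods had the highest sum in 5 of the 6 libraries. The exception was 18-month replicate 1, where rods had 687 CPM and Müller glia 747 CPM. By age, the rod sum was 854 ± 175 CPM at 18 months and 1681 ± 493 at 3 months. That of Müller glia was 809.9 ± 107 and 809.4 ± 83.6 (SD, n = 3 libraries per age). The rod values include those that led to the choice of the genes, so the place of rods in this order is a description. How many of all genes are highest in rods was not counted. Rods also kept the highest sum when any 1 library was left out, and with the nuclei of rod cluster 0 alone. With nuclei assigned one by one from their markers, which put 59.8% to 90.9% of each library's nuclei in rods, rods again had the highest sum, but only 3 of the 10 genes were highest in rods and 4 in cones.

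The main lumenal chaperones were highest in the photoreceptors. Hspa5 averaged 149.7 ± 87.3 CPM in rods and 98.9 ± 14.3 in cones, with 79.9 ± 25.7 in Müller glia, 74.0 ± 12.9 in amacrine, 67.1 ± 12.4 in horizontal, 62.7 ± 14.7 in bipolar and 60.1 ± 11.5 in ganglion cells. Hsp90b1 averaged 398 ± 218 CPM in rods, 258 ± 50.9 in cones, 207 ± 33.8 in Müller glia, 185 ± 44.3 in bipolar, 172 ± 24.0 in amacrine, 161 ± 22.2 in horizontal and 122.98 ± 14.1 in ganglion cells. The classes at either end of these orders were 2.49-fold apart for Hspa5 and 3.24-fold apart for Hsp90b1, and retinal ganglion cells were lowest for both. Rods had the highest Hsp90b1 in 5 of 6 libraries and the highest Hspa5 in 4 of 6.

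By mean level, the lectins differed from each other in their order. Calr averaged 192 ± 84.3 CPM in rods, 107 ± 32.1 in cones, 101 ± 35.1 in Müller glia, 86.3 ± 27.6 in amacrine, 80.9 ± 23.5 in horizontal, 75.6 ± 36.2 in bipolar and 62.0 ± 19.8 in ganglion cells. Canx averaged 248 ± 67.3 CPM in rods and 187 ± 18.5 in Müller glia, followed by amacrine cells (165 ± 35.03), ganglion cells (159 ± 30.3), horizontal cells (153 ± 30.3), cones (149.7 ± 34.6) and bipolar cells (134 ± 12.1). By these means cones came next after rods for Calr and next to last for Canx. Cones were above Müller glia for Calr, and below horizontal cells for Canx, in 3 of 6 libraries each. With nuclei assigned one by one from their markers, Müller glia exceeded cones for Calr (87.1 and 84.5 CPM). For Canx, cones (158 CPM) then exceeded horizontal (154) and bipolar cells (147). The classes at the ends were 3.10-fold apart for Calr and 1.86-fold apart for Canx.

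Of the disulfide isomerases, Pdia4 had the steepest order and Pdia6 led in glia. Pdia4 averaged 44.4 ± 17.6 CPM in rods, 27.8 ± 10.4 in cones and between 10.7 ± 2.07 (ganglion cells) and 16.6 ± 5.89 (horizontal cells) in the other 5 classes, a span of 4.16-fold. Pdia3 averaged 111 ± 58.5 CPM in rods and 97.3 ± 36.5 in Müller glia, with the other classes between 45.9 ± 11.4 (horizontal) and 67.2 ± 19.8 (cones). Pdia6 averaged 81.3 ± 20.5 CPM in Müller glia and 69.7 ± 35.3 in rods, with the other classes between 35.1 ± 3.13 (horizontal) and 46.5 ± 14.9 (cones). With each library left out in turn, 7 to 9 of the 10 genes were highest in rods.

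The partners of Hspa5 were sparse. Dnajb9 averaged from 12.5 ± 5.37 CPM in horizontal cells to 29.0 ± 13.9 in rods, and Hyou1 from 11.3 ± 5.85 in bipolar cells to 17.0 ± 7.77 in Müller glia. Sdf2l1 had 96 UMIs in rods of all libraries together (7.81 ± 5.76 CPM) and 1 UMI in horizontal cells. Their orders rest on few molecules. With nuclei assigned one by one from their markers, Hyou1 was lowest in Müller glia (6.66 CPM) and highest in amacrine cells (17.8 CPM).

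Of the 60 steps between neighbouring classes, 2 had the same direction in all 6 libraries. In a two-sided exact sign-flip permutation test of log2(CPM + 1) paired within the 6 libraries, the smallest p, 0.0312, is the smallest that 6 libraries can give, and it was reached by these 2 steps: Hspa5 in horizontal against bipolar cells and Hsp90b1 in cones against Müller glia. The smallest p adjusted over the 60 steps was 0.433. No step could have passed after adjustment unless most of the 60 had reached the smallest p, so the adjusted values say nothing on whether neighbouring classes differ. The remaining steps were not in the same direction in all libraries. RNA of rod markers was present in every class, and its part in the distances between classes was not tested.

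**Figure D1:**
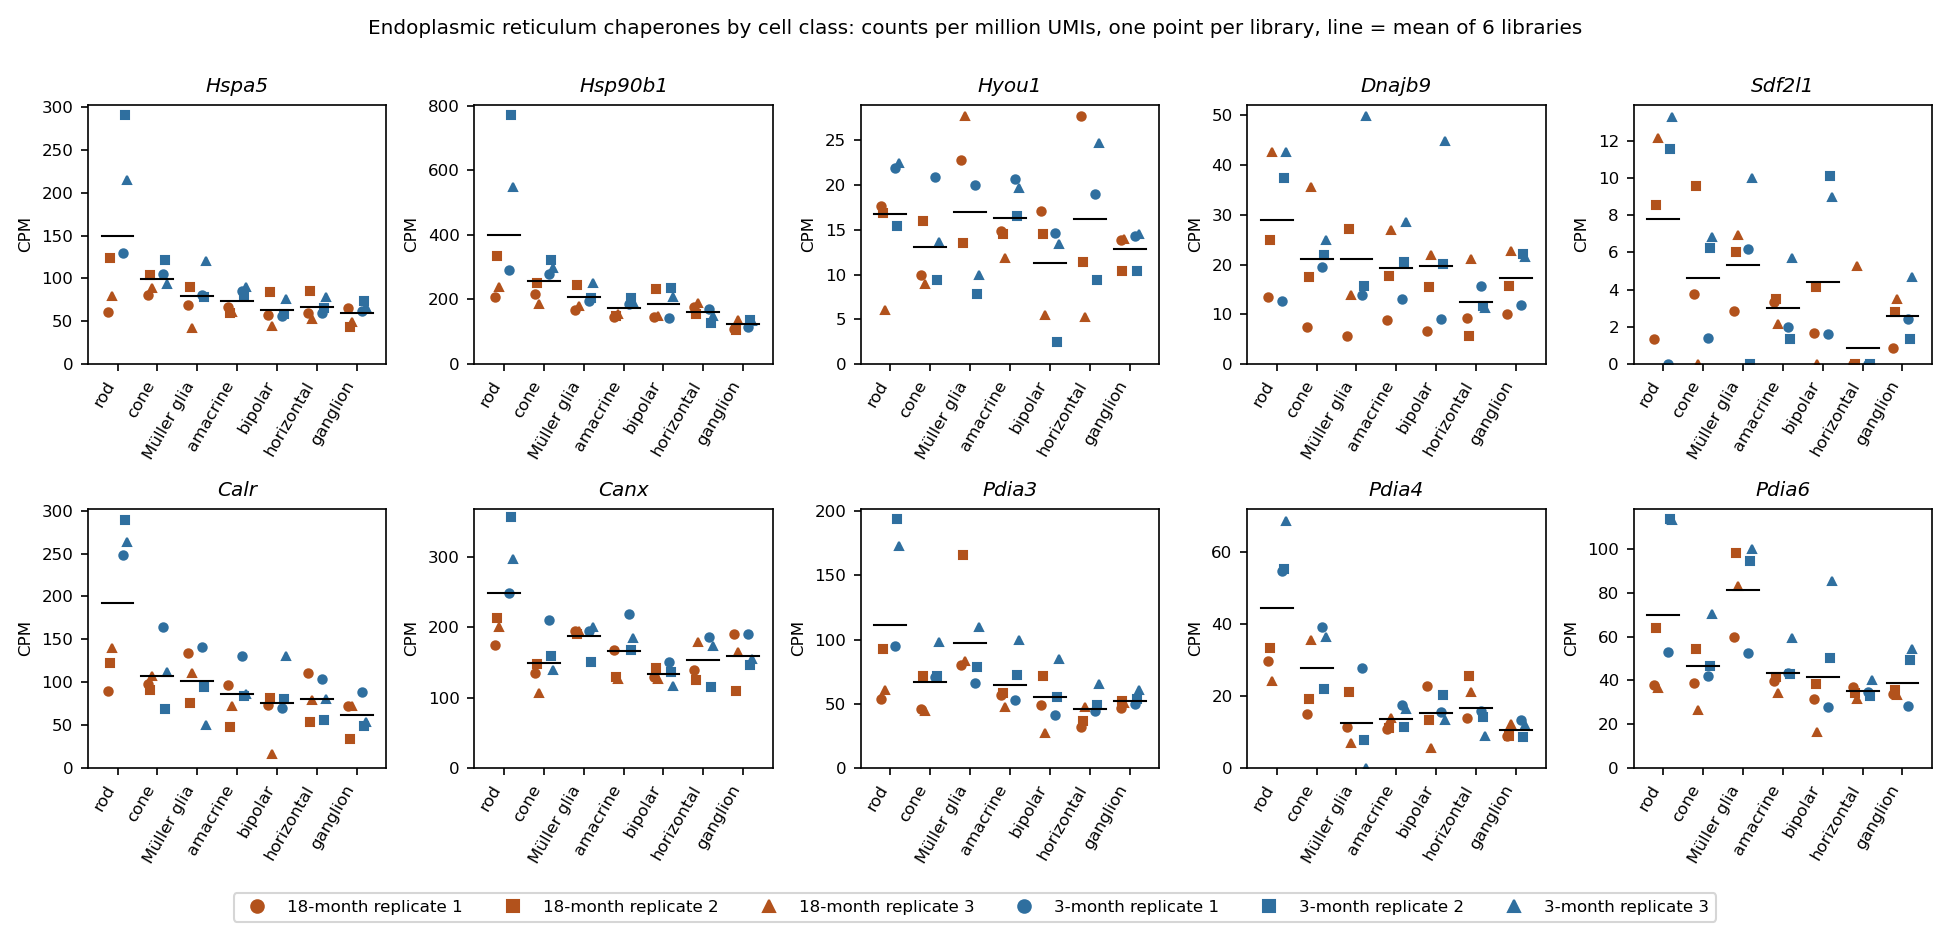
Level of each chaperone by cell class, in CPM (y axis, from 0, its scale set per gene). Each point is a library, 18-month left and 3-month right within a class, and each line is the mean of 6 libraries. Rods are highest on average for 8 of the 10 genes. For Hsp90b1, Pdia6, Dnajb9 and Sdf2l1, rods of 3-month replicate 1 lie below those of an 18-month library, and for Hyou1 those of 3-month replicate 2 do.

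Among small classes, endothelial cells stood highest. Values are pooled over the libraries of an age, with exact Poisson 95% intervals that cover counting error only. The 10 genes together had 1001 CPM (870 to 1146, 210 UMIs) in 18-month and 1180 CPM (915 to 1499, 67 UMIs) in 3-month endothelial cells. Microglia had 741 CPM (667 to 820) at 18 months and 915 CPM (683 to 1199) at 3 months. Pericytes or smooth muscle cells had 761 CPM (639 to 899) at 18 months and 971 CPM (757 to 1227) at 3 months. Retinal pigment epithelium had 559 CPM (469 to 661) at 18 months and 910 CPM (723 to 1131) at 3 months, but 3-month replicate 1 had no such nucleus and 18-month replicate 2 had no UMI of these genes there. In this last class alone of the 4 the intervals of the ages did not meet, and none of the 4 was tested.

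The levels moved together over classes and libraries for the larger genes. Over the 42 sums of 7 classes and 6 libraries, Pearson's r of log2(CPM + 1) with the mean of the other members was 0.855 for Pdia3, 0.845 for Hsp90b1, 0.794 for Hspa5, 0.730 for Calr, 0.719 for Pdia6 and 0.693 for Canx. It was 0.488 for Sdf2l1, 0.382 for Pdia4, 0.378 for Dnajb9 and 0.215 for Hyou1. Of 8277 other genes with a mean of at least 20 CPM, the 5 most like the members were Ctsb, a lysosomal protease (r = 0.868), Atp5b, a subunit of the mitochondrial ATP synthase (0.836), Rps28, a ribosomal protein (0.835), Eef1a1, a translation elongation factor (0.833), and Atp6v0e2, a subunit of the vacuolar proton pump (0.833). The 42 points share libraries, depth and RNA of other cells, so these values are descriptions.

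In rods, all 10 chaperones were lower on average at 18 months than at 3 months. Their median log2 change was -1.26, beside -0.04 for the 11294 genes tested in rods. The fold changes are of RNA summed over nuclei and scaled to the sum, so less RNA per nucleus and fewer nuclei rich in it cannot be told apart. Values below are CPM scaled with TMM factors (normalised CPM), for replicates 1, 2 and 3 of each age.

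For the Hsp70 and Hsp90 chaperones, the 3-month replicates 2 and 3 stood well above the rest. Hspa5 had 55.2, 117 and 68.3 normalised CPM in 18-month rods, against 122, 372 and 239 in 3-month rods, a log2 change of -1.58 (SE 0.49). Its ages did not overlap, though 18-month replicate 2 and 3-month replicate 1 were close. Hsp90b1 had 189.9, 319 and 205 in 18-month rods, against 274, 986 and 609 in 3-month rods, a log2 change of -1.38 (SE 0.52). Its ages overlapped, since 18-month replicate 2 exceeded 3-month replicate 1.

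Both lectins separated the ages. Calr had 81.9, 117 and 121 normalised CPM in 18-month rods, against 233, 370.0 and 292 in 3-month rods, a log2 change of -1.49 (SE 0.35). Canx had 160.1, 202 and 173 in 18-month rods, against 233, 456 and 328 in 3-month rods, a log2 change of -0.92 (SE 0.37). For both, every 3-month library was above every 18-month library.

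Pdia4 separated the ages as well, and the other isomerases by less or not at all. Pdia4 had 27.3, 31.8 and 21.0 normalised CPM in 18-month rods, against 51.3, 70.8 and 76.2 in 3-month rods, a log2 change of -1.24 (SE 0.32). Pdia3 had 49.0, 87.9 and 52.5 in 18-month rods, against 89.0, 248 and 192 in 3-month rods, a log2 change of -1.45 (SE 0.45). Pdia6 had 34.7, 60.8 and 31.5 in 18-month rods, against 49.6, 146 and 125 in 3-month rods, a log2 change of -1.28 (SE 0.46). The ages of Pdia3 met almost exactly, and those of Pdia6 overlapped.

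The partners of Hspa5 had small values and, but for Hyou1, ages that overlapped. Dnajb9 had 12.4, 23.7 and 36.8 normalised CPM in 18-month rods, against 11.98, 47.9 and 47.4 in 3-month rods, a log2 change of -0.78 (SE 0.56). Sdf2l1 had 1.24, 8.11 and 10.5 in 18-month rods, against 0, 14.8 and 14.7 in 3-month rods, a log2 change of -0.95 (SE 0.88). Both were lowest in the libraries of release 7.1.0 at either age. Hyou1 had 16.1, 16.0 and 5.25 in 18-month rods, against 20.5, 19.7 and 24.96 in 3-month rods, a log2 change of -0.58 (SE 0.38), with no overlap.

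**Figure D2:**
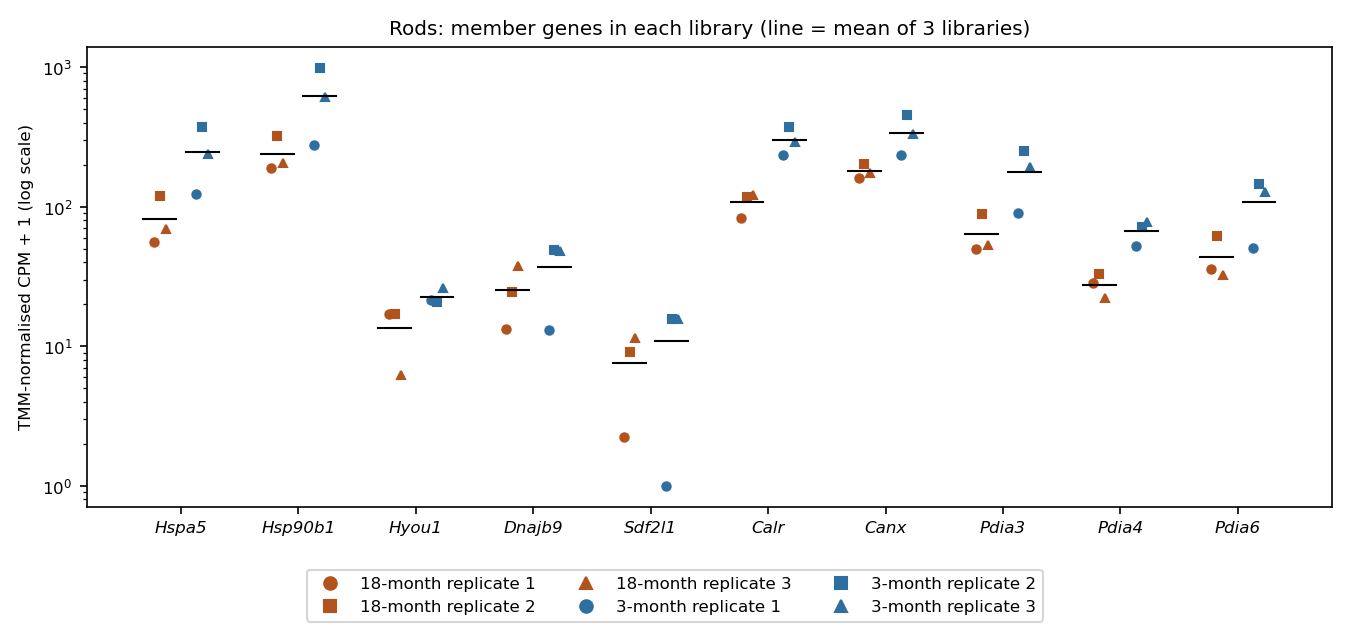
Normalised CPM + 1 in rods (y axis, log scale) for each chaperone, one point per library, 18-month left and 3-month right, with the mean of 3 libraries as a line. All 10 means are lower at 18 months, and the 3-month replicate 1 lies below the other 3-month libraries for most genes.

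No chaperone passed an adjusted p of 0.05 in rods with age as the only term (edgeR's quasi-likelihood test with Benjamini-Hochberg adjustment over 11294 genes, 0% of them called; 7 members had an unadjusted p under 0.05, and DESeq2 called 0 members beside 0.062% of genes). The smallest adjusted p of a member was 0.61. With the Cell Ranger release as a second term, 7 of the 10 were called lower, namely Calr, Hspa5, Pdia3, Pdia4, Hsp90b1, Pdia6 and Canx, where 8.83% of all genes were called (997 of 11294) and 5.79% were called lower. With the replicate number as a block, 7 members were called beside 7.04% of genes. Since this contrast was used to choose the genes, nothing is read from those shares. For 6 of the 10 (Hspa5, Hyou1, Calr, Canx, Pdia3 and Pdia4) the normalised CPM of the ages did not overlap, lower at 18 months, which held for 6.6% of genes tested.

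The number of calls with the release term changed with single libraries, while all 10 members stayed lower. With all libraries and the release term the median log2 change was -1.13. Leaving out 18-month replicate 3 gave a median of -0.98 and 5 members called, beside 3.16% of genes. With 3-month replicate 2 left out the median was -0.94 and 1 member was called, beside 0.168%. No member was called when 18-month replicate 2 (median -1.20, 0.0764% of genes) or 3-month replicate 3 (median -1.13, 0.0847%) was left out. Within release 7.1.0 there was 1 library per age, which gives no test. There the median log2 ratio of the 10 genes was -0.53 (range -1.50 to 1.16), and within the 4 libraries of release 7.2.0 the median log2 change was -1.22, with 8 members called beside 22.4% of genes.

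Rods formed 4 clusters that the libraries filled differently and in which the chaperones had different levels. The members and the wider gene lists were left out of the genes used for clustering. In 3-month replicate 2 the 10 genes summed to 2685 CPM in cluster 19, 2063 in cluster 5 and 1090 in cluster 0. In 3-month replicate 3 the sums were 2659, 1849 and 1045 CPM. Within cluster 5 the sum was 3058 CPM in 3-month replicate 1 (51 nuclei). At 18 months it was 1624 CPM there in replicate 2 (443 nuclei) and 697 CPM in replicate 3 (20 nuclei, 13 UMIs of the members). The 10 nuclei of 18-month replicate 1 in cluster 5 were too few for a level. Cluster 5 held 0.861%, 7.99% and 11.4% of the rods of 18-month replicates 1, 2 and 3, against 10.1%, 52.2% and 40.7% of those of 3-month replicates 1, 2 and 3. Cluster 19 held at most 0.126% of the rods of an 18-month library, against 0.198%, 24.1% and 11.998% of those of the 3-month libraries. The median mitochondrial percent was 2.42% in cluster 19, 2.91% in cluster 5, 1.71% in cluster 0 and 2.06% in cluster 9. Cluster 9 was filled almost wholly by the libraries of release 7.1.0, with 86.1% of the rods of 18-month replicate 1 and 69.8% of those of 3-month replicate 1, at 612 and 860 CPM. It was named from 6 of the 12 rod markers, where clusters 0, 5 and 19 had all 12. Its leading genes Zan, Slc17a4, Cmah and Slc22a29 also led bipolar cluster 10. Most nuclei of cone cluster 16 (499 and 546 of 1059) and bipolar cluster 10 (614 and 640 of 1319) also came from 18-month and 3-month replicate 1. The clusters were made from the same nuclei, so differences between them are a description.

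Cluster 0 was the only rod cluster with at least 20 nuclei in every library, and there the ages were close. The 10 genes summed to 1340, 983 and 853 CPM in 18-month rods of cluster 0, against 1417, 1090 and 1045 CPM in the 3-month ones. The median log2 change was -0.30 over the 8 members that passed the low-count filter, 6 of them lower, against -1.26 in all rods. Canx and Pdia6 had positive log2 changes there (0.24 each). All 12 rod markers were above the fold for naming in cluster 0, but haemoglobin genes led it, with Hbb-bs at 29.6, 53.8 and 21.3 CPM at 18 months and 1921, 9640 and 5705 CPM at 3 months. In the other 3 clusters together the median was -1.23, and with the release term 3 members (Calr, Hspa5 and Pdia4) were called there beside 2.57% of genes. Of 18-month replicate 3, clusters 5, 9 and 19 held only 20, 6 and 0 rods. Cluster 9 gave 1000 rods of 18-month replicate 1 to that comparison, but 3 and 0 of 3-month replicates 2 and 3. These splits of the rods were added after the values were seen. The part of the rod class's makeup in the rod difference was not tested.

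**Figure D3:**
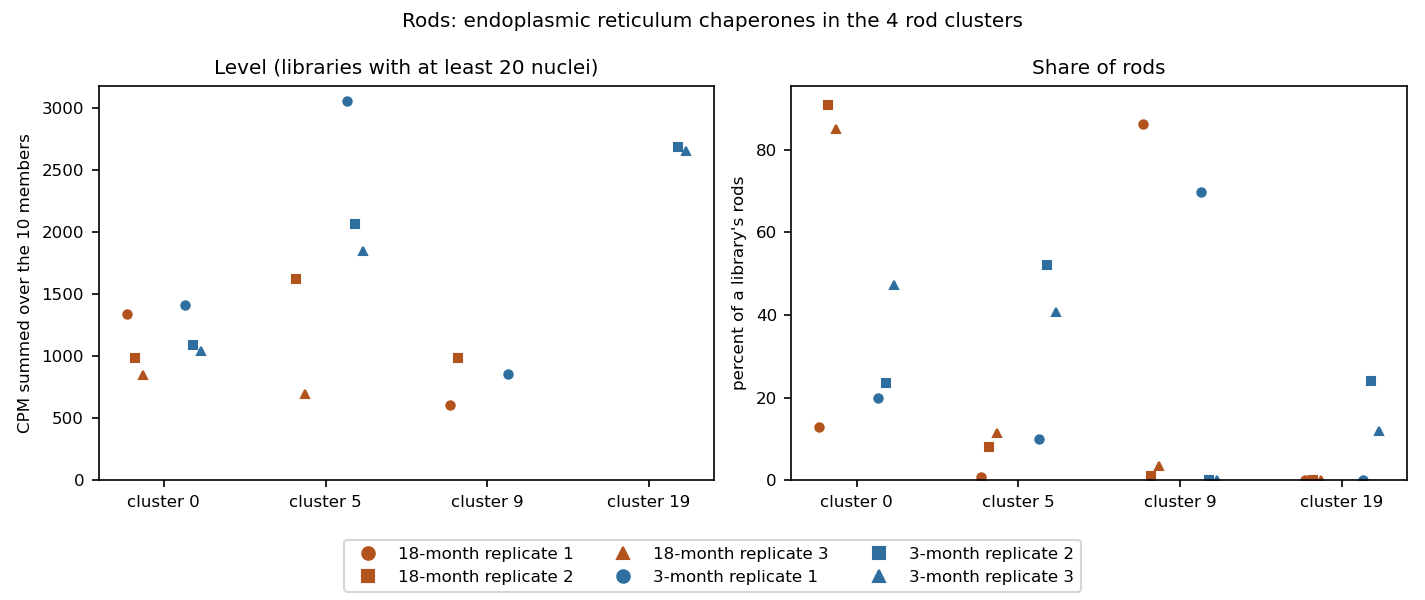
Rod clusters in each library, 18-month left and 3-month right within a cluster. The left panel gives CPM summed over the 10 chaperones (libraries with at least 20 nuclei in the cluster) and the right panel the percent of a library's rods; the highest sums, 1849 to 3058 CPM, are those of 3-month rods in clusters 5 and 19, which hold few 18-month rods.

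**Figure D4:**
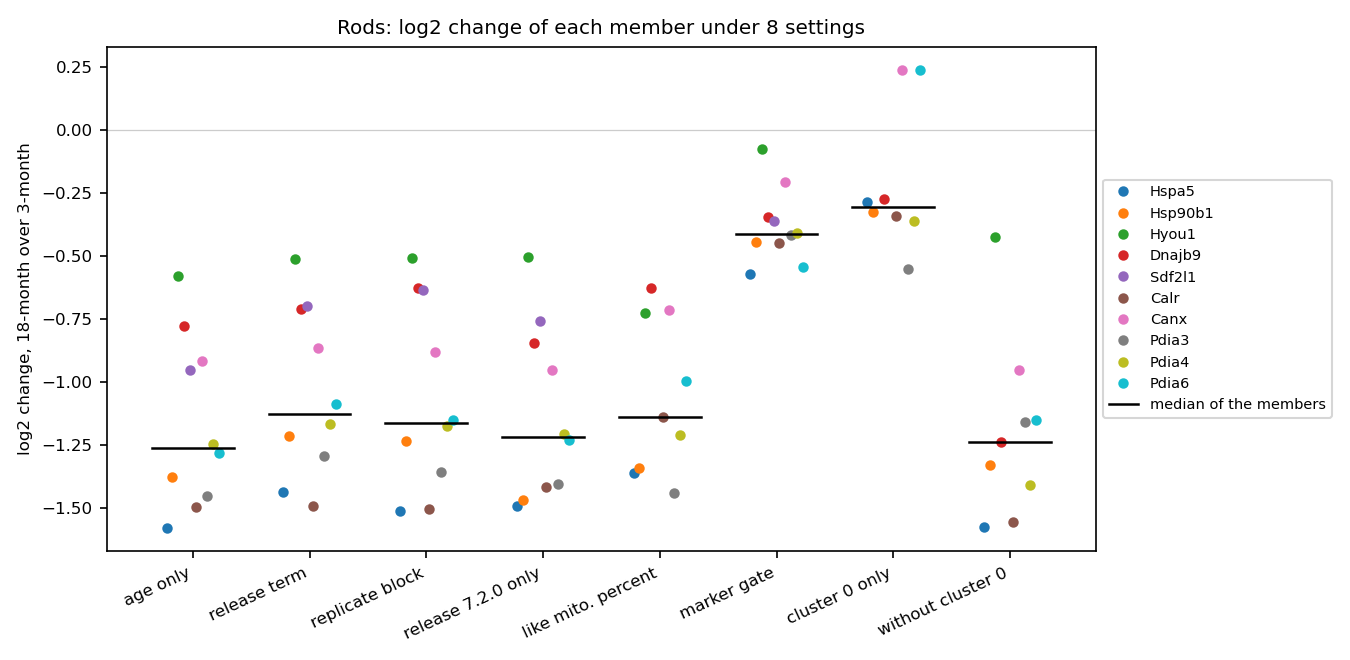
Log2 change of each chaperone in rods, 18-month over 3-month (y axis), under 8 settings along the x axis, with the median of the members as a line. The median lies between -1.26 and -1.13 in 5 settings and at -1.23 without cluster 0, and at -0.41 and -0.30 when nuclei are assigned one by one or only cluster 0 is used.

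Outside rods no member was called in any class, and the median differences were nearer to 0 than in the rods as named by clusters. With nuclei assigned one by one from their markers the rod median was -0.41, against -0.45 in horizontal and -0.39 in amacrine cells. In amacrine cells, the inhibitory interneurons of the inner retina, the 9 members that passed the filter were all lower, with a median log2 change of -0.46 beside -0.01 for all 12727 genes tested. In cones all 8 were lower (median -0.45), in bipolar cells 7 of 8 (-0.13), in horizontal cells 5 of 6 (-0.23), in retinal ganglion cells 10 of 10 (-0.22), and in Müller glia 3 of 6 (-0.004). The medians over all genes tested in these classes lay between -0.02 and 0.03. The same edgeR test called 0 members and 0% of genes in each of the 6 classes. Hspa5 and Canx in amacrine cells had an unadjusted p under 0.05, and no member did elsewhere. DESeq2 called 0 members in these classes, beside 0.316% of genes in Müller glia, 0.00786% in amacrine, 0% in bipolar, 0% in cones, 0.613% in horizontal and 0% in ganglion cells. Over all kept nuclei, named or not, all 10 were lower (median -0.37), with 0 members and 0% of genes called, none at an unadjusted p under 0.05 and 0 by DESeq2 (0.0877% of genes). There the ages did not overlap for Calr alone, beside 1.93% of genes.

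In amacrine cells the ages were apart for Hspa5, Hsp90b1 and Canx. Hspa5 had 63.5, 60.6 and 62.3 normalised CPM in 18-month amacrine cells, against 81.8, 85.0 and 91.1 in 3-month ones. Hsp90b1 had 139, 152 and 158, against 178, 215 and 194, and Canx had 158, 130.3 and 128, against 209, 178 and 187 in the 3-month libraries. The ages did not overlap for 4 of the 9 members, these 3 and Hyou1, beside 3.14% of all genes lower without overlap. Since amacrine values were among those that led to the choice of the genes, nothing is read from that count. Other members varied more within an age, such as Pdia3, with 54.0, 59.3 and 48.1 in 18-month amacrine cells, against 50.6, 76.6 and 101 in 3-month ones. In cones the ages did not overlap for Hsp90b1 (206, 248 and 186 in 18-month cones, against 276, 338 and 302 in 3-month cones; 1 of 8 members, beside 2.92% of genes), and in horizontal cells for Pdia3 (31.5, 35.2 and 40.5 at 18 months, against 44.0, 56.5 and 72.1 at 3 months; 1 of 6, beside 5.92%).

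The median mitochondrial percent was higher in every 3-month library of amacrine cells than in the 18-month ones, while in horizontal cells it was 0.724% to 0.789% at 18 months and 0.708% to 2.23% at 3 months. In cones it was 0.842% to 1.37% at 18 months and 1.49% to 3.38% at 3 months, and the RNA of rod markers in amacrine cells was 4844 to 9324 CPM at 18 months and 8516 to 11464 CPM at 3 months. That RNA did not overlap between the ages in cones (12648 to 20966 CPM at 18 months, 22151 to 27601 at 3 months). The same held in Müller glia (5696 to 10116 and 15621 to 19436.5), while the ages overlapped in bipolar, horizontal and ganglion cells. Its part in the differences between ages was not tested. With nuclei drawn so that each library of a class had a like mitochondrial percent, the median log2 change of the members was -0.088 in amacrine cells, -0.098 in cones, -0.014 in horizontal cells, -0.074 in ganglion cells, 0.05 in bipolar cells and 0.11 in Müller glia, while in rods it was -1.14. Fewer nuclei and so fewer members remained: 9 members in amacrine cells, 4 in cones (8 with all nuclei), 3 in horizontal cells (6), 9 in ganglion cells (10), 6 in bipolar cells (8), 3 in Müller glia (6) and 9 in rods (10). The cones of 18-month replicate 3 and the Müller glia of 3-month replicate 3 were down to 17 nuclei each. These medians are therefore not over the same genes as those above, except in amacrine cells.

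**Figure D5:**
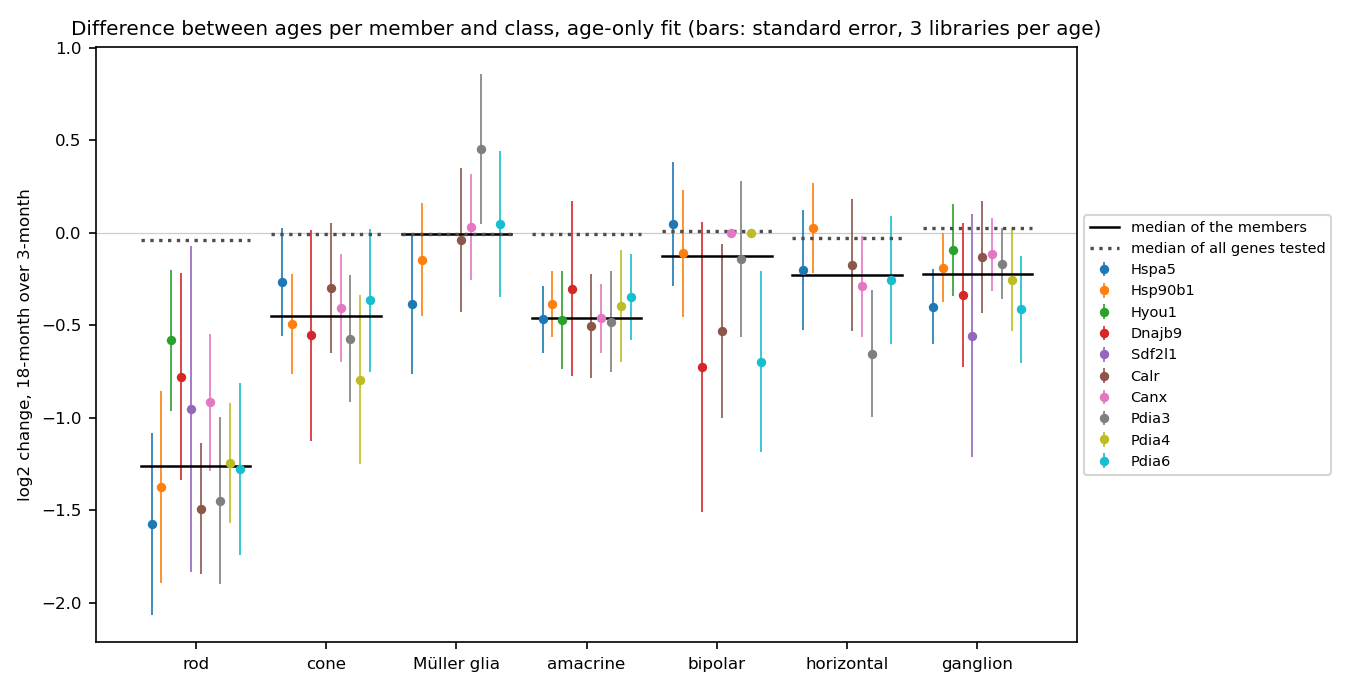
Log2 change of each chaperone between ages, 18-month over 3-month (y axis), by cell class, from the fit with age alone. Points are genes that passed the low-count filter, bars are standard errors (left out where the change was too near 0 to give one), black lines the median of the members and dotted lines the median of all genes tested; the members' median is -1.26 in rods and between -0.46 and -0.004 in the other classes.

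The difference of the age effect between each other class and rods was also tested, in a model with 1 term for each library and an interaction of class with age. It contains the rod contrast that chose the genes, so a positive value is no independent finding. The median difference, other class minus rods, was 1.01 in Müller glia, 0.90 in amacrine, 1.08 in bipolar, 0.64 in cones, 0.98 in horizontal and 0.89 in ganglion cells. None of the 8 to 10 members tested per class passed an adjusted p of 0.05 in edgeR's quasi-likelihood test. The share of all genes called was 0.00934% for Müller glia, 0% for amacrine, 0.0241% for bipolar, 0.0194% for cones, 0.0574% for horizontal and 0.0345% for ganglion cells. At an unadjusted p under 0.05 there were 2 members in cones and 4 to 6 in the other classes. Within the 4 libraries of release 7.2.0, Hsp90b1 alone passed, in horizontal cells (adjusted p = 0.021), where 9.89% of genes did. In the other 5 classes 0 members passed there, beside 0.0551% of genes for Müller glia, 1.53% for amacrine, 0.191% for bipolar, 0.325% for cones and 0.233% for ganglion cells.

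Other genes of protein folding in rods were lower to different degrees. With age alone no gene of any list was called. The lists, like the members, were written with the earlier rod results known. The median log2 change in rods was -0.67 for 21 other folding enzymes of the endoplasmic reticulum, -0.93 for 12 subunits of the oligosaccharyltransferase, which adds glycans to new chains, -0.72 for 18 genes of the translocon and signal peptide processing, and -0.44 for 17 genes of degradation from the endoplasmic reticulum. It was -0.29 for 15 sensors and factors of the unfolded protein response, with 10 of 15 lower. Outside the endoplasmic reticulum it was -0.64 for 23 cytosolic chaperones, -0.36 for 10 mitochondrial chaperones and -1.11 for 65 cytosolic ribosomal proteins, all 65 lower.

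With the release term, called members of these lists in rods were all lower: 8 of 21 other folding enzymes, 6 of 12 oligosaccharyltransferase subunits, 6 of 18 translocon genes, 1 of 17 degradation genes, 1 of 15 unfolded protein response genes, 2 of 23 cytosolic chaperones, 0 of 10 mitochondrial chaperones and 49 of 65 ribosomal proteins, beside the same 5.79% of genes called lower. Creld2, a folding factor induced by stress of the endoplasmic reticulum, had 3.10, 11.04 and 5.25 normalised CPM in 18-month rods, against 5.13, 45.2 and 44.8 in 3-month rods. Its low 3-month value was that of replicate 1, as for Dnajb9 and Sdf2l1. Txndc5, a disulfide isomerase, had 12.4, 13.5 and 10.5 in 18-month rods, against 35.9, 24.2 and 29.4 in 3-month rods, without overlap. Ddost, an oligosaccharyltransferase subunit, averaged 16.9 ± 7.25 in 18-month rods and 47.2 ± 28.0 in 3-month rods (SD, n = 3 each), and Ssr2, a translocon-associated protein, 41.0 ± 23.9 and 90.5 ± 58.0. Hsp90aa1, the inducible cytosolic Hsp90, averaged 1103 ± 327 in 18-month rods and 2545 ± 1266 in 3-month rods. The ages overlapped for Ddost, Ssr2 and Hsp90aa1, where 3-month replicate 1, at 15.4, 25.7 and 1244, lay within the 18-month range.

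In the other tested classes no list had a called gene with age alone. The ribosomal proteins were lower in 55 to 65 of 65 genes in each, with medians of -0.62 in cones, -0.59 in Müller glia, -0.40 in ganglion cells, -0.39 in bipolar cells, -0.35 in amacrine cells and -0.24 in horizontal cells. In amacrine cells the chaperones (-0.46) were the lowest of the 9 lists, and the unfolded protein response list had a median of -0.07 there. Amacrine values were among those that led to the choice of the genes, so nothing is read from that rank. In Müller glia the chaperones (-0.004) were the list nearest to 0.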

How the data were processed

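The deposited matrices hold whole-number UMI counts per gene and barcode, made by the authors with Cell Ranger 7.1.0 or 7.2.0 on mm10, per the submitters' processing notes. Whether intronic reads were counted is not given in the sources used here. Nuclei with at least 300 genes and at most 5% mitochondrial counts were kept. The mitochondrial limit was exceeded by 41.9%, 23.8% and 9.36% of barcodes in 3-month replicates 1, 2 and 3. In 18-month replicates 1, 2 and 3 it was exceeded by 9.16%, 2.11% and 1.12%. The limit thus took a larger share from every 3-month library than from any 18-month one. The part of this loss in the differences between ages was not tested. Likely doublets, 4989 in all, were removed by score at 0.8% per 1000 nuclei, because the caller's own threshold marked at most 1 nucleus per library. Nuclei were clustered with scanpy 1.11.5 (30 components, 15 neighbours, Leiden resolution 1) without the members and lists, and clusters were named from markers (at least 3 and at least 30% of a list). Naming settings were set after the clusters were seen and with earlier results of these data known.

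Counts were summed per library and class, and tested with edgeR 4.0.16 (quasi-likelihood, TMM, filterByExpr, age as the only term) with p-values adjusted over all genes of a class. Total counts per library ranged from 15905689 to 29340705. Members and lists were chosen with earlier results of these data known. Genes named from a list are the 2 with the largest change among those called. No pairing of libraries is stated in the labels. In rods, same-numbered libraries deviated together (correlations 0.169 to 0.595), but unlike-numbered replicates 2 and 3 of the ages did too (0.129 and 0.451). Replicate 1 of either age deviated against replicates 2 and 3 of the other age in rods (-0.581 to -0.168). Deviations were taken from the mean of each age's libraries and cancel out within an age. Positive correlations between same-numbered libraries therefore force some negative ones, and nothing further is read from these. In the other tested classes and all kept nuclei, same-numbered correlations were positive except for replicate 3 in bipolar cells (-0.113). Alternatives were DESeq2 1.42.0, other size factors, no filter, the release term, release 7.2.0 alone, a replicate block, like mitochondrial percent, a marker gate and each library left out, with those on rod cluster 0 added after seeing the data. The fits were also run on counts simulated for rods and retinal ganglion cells alone. Those counts held no difference between Cell Ranger releases, so they do not show how the fits behave on these libraries. Intervals cover counting error only.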

Additional observations from a re-analysis of the deposited data

How the results depend on the processing

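In rods, 0 members were called with age alone, 7 with the release term, 7 with the replicate block, 8 in release 7.2.0 alone, 3 with the release term at a like mitochondrial percent and 3 with it without cluster 0. Leaving out single libraries gave 0 to 5 calls, the highest with the release term. The replicate block changed no other call. The rod median of -1.26 was -0.41 with the marker gate (-0.37 with the release term) and -0.30 in cluster 0 alone (-0.32 with the release term), and -1.65 to -0.94 without single libraries. At a like mitochondrial percent the median was -0.088 in amacrine cells, -0.098 in cones (4 members against 8) and -0.014 in horizontal cells (3 against 6), and with the marker gate it was -0.45 in horizontal cells. Without single libraries it ran from -0.47 to -0.38 in amacrine cells, from -0.67 to -0.35 in cones and from -0.33 to -0.15 in horizontal cells. With the marker gate 3 members were highest in rods and Müller glia had 683 CPM, and 7 to 9 were highest in rods without single libraries. In release 7.2.0 alone, 1 member differed between horizontal cells and rods. The cause was not tested in any of these. In all tested settings of cluster 0, Canx and Pdia6 were higher at 18 months (0.24 and 0.24, or 0.13 and 0.22 with the release term). Depth limits Sdf2l1, Dnajb9 and Hyou1 most, and small classes gave no test.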

Other observations

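Nuclei of the 7 unnamed clusters, which enter no class, also held the chaperones. Summed over the 10 genes and pooled over libraries, the level was 995 CPM in cluster 33, 885 in cluster 4, 788 in cluster 1, 734 in cluster 6, 680 in cluster 27, 581 in cluster 12 and 519 in cluster 2. Clusters 1 and 2 held most nuclei of 18-month replicate 3, with 5857 and 3580 of them.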
